A study of Mus musculus with 7 samples.

Results

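The expression of 10 genes that help decide whether a T cell is switched on or held back by the cell that shows it antigen was followed in the epidermis after bone marrow transplantation (BMT). The genes were Cd80 and Cd86, Icosl, Cd274 and Pdcd1lg2, Cd40, Havcr2 and Lgals9, Slamf7 and Cd200r1. They were chosen by name and not by a rule on their values, but with earlier results of these data known. All 10 were found among the 15155 genes listed for donor myeloid cells, the 26383 listed for keratinocytes and the 23737 listed for host myeloid cells. Most encode ligands, whereas Cd40, Havcr2 and Cd200r1 encode receptors that the myeloid cell itself carries.

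The study followed how donor monocytes rebuild the network of Langerhans cells, the resident antigen-presenting cells of the epidermis, after T cells have destroyed the host's own. Hosts were male C57BL/6 mice carrying CD45.2 that received lethal irradiation and bone marrow of female CD45.1 C57BL/6 donors, and the epidermis was taken 3 weeks later. Donor CD11b+MHCII+ cells came as 3 libraries with the label BMT (BMT 1, BMT 2 and BMT 3) and 1 with the label BMT + T cells, CD45-negative keratinocytes came as 1 library under each label, and host CD11b+MHCII+ cells came as 1 library labelled BMT. The T cells were CD4 T cells together with CD8 Matahari T cells, which carry a transgenic receptor for a male antigen. The design text gives T cells to all recipients whereas the labels name them for 2 libraries only, so the comparisons below are between labels. Cells of several mice were pooled in each sort, so that a library is not a single animal, and the labels do not say whether libraries of 1 label came from separate mice.

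When an antigen-presenting cell shows a peptide to a T cell, CD80 and CD86 engage CD28, which promotes activation, or CTLA-4, which restrains it. The CD40 receptor is triggered by CD40 ligand on activated T cells and raises the costimulatory capacity of the cell, whereas PD-L1 (Cd274) and PD-L2 (Pdcd1lg2) engage the inhibitory receptor PD-1. Langerhans cells that leave the epidermis for the lymph node are known to mature on the way, which includes a gain of costimulatory molecules, and interferon-gamma is a well-known inducer of PD-L1 in many cell types.

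Donor libraries held 226 to 8382 cells, with a median of 7021.5 to 13387 unique molecular identifiers (UMIs, each a counted transcript) per cell. The keratinocyte libraries held 2590 and 2836 cells at medians of 8834 and 8895.5 UMIs, and the host library held 781 cells at a median of 4376 UMIs. Any pair of libraries shared at most 7 cell barcodes. Cluster names are those the study assigned, and levels below are UMIs per 10000 UMIs of a cell (CP10K), averaged over the cells of a library and cluster of at least 20 cells. Langerhans markers (Cd207, Epcam and Mfge8) summed to 59.9 to 85.6 CP10K in resident monocyte-derived Langerhans cells (resident mLCs) and to 0.416 to 1.55 CP10K in monocytes (Mono). The migration markers Ccr7, Ccl22, Fscn1 and Nr4a3 summed to 48.7 to 58.5 CP10K in migrating mLCs and to at most 1.80 CP10K in every other donor cluster. Of 11 markers of T and NK cells 7 were listed, and they summed to at most 0.226 CP10K in any donor cluster of any library, and keratinocyte markers to at most 2.39 CP10K.

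Sequence upstream of transcription start sites was available for 7 of the 10 genes from RefSeq on build GRCm38.p6, and is shown for Lgals9, which had its highest mean in the interferon-stimulated monocytes, and for Cd274, the member that differed most between clusters. Each window holds the 250 bases before the start, and capitals mark a match to the core of the interferon-stimulated response element (GAAA and GAAA with any 2 bases between them, read on both strands).
Lgals9, chr11:78984925-78985174, minus strand: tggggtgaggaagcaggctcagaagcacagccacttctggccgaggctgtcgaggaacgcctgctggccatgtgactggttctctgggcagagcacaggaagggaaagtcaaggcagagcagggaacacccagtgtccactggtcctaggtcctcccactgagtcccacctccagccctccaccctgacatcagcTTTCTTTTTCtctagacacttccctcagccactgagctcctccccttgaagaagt
Cd274, chr19:29367188-29367437, plus strand: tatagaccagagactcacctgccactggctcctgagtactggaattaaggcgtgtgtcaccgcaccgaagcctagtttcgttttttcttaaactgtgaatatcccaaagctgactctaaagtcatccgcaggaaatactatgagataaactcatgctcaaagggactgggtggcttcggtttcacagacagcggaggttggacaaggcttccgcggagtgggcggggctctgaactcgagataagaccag
Among the 7 windows, 1 held this core. It lay 55 to 46 bases before the start of Lgals9, and 2.98% of 32851 windows of the same length held such a match. Neither the gamma-activated site (TTCNNNGAA, in 7.02% of all windows) nor a kappaB pattern (GGG and TTCC with any 3 bases between them, in 4.65%) was present in any of the 7. A match describes the letters only, and the absence of a match says nothing beyond this window. The Cd274 window lies within the annotated span of the gene (chromosome 19, 29362107 to 29388095), which begins further upstream, and Pdcd1lg2 (29410919 to 29472927) is its neighbour at a distance of 22.8 kb.

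**Figure D1:**
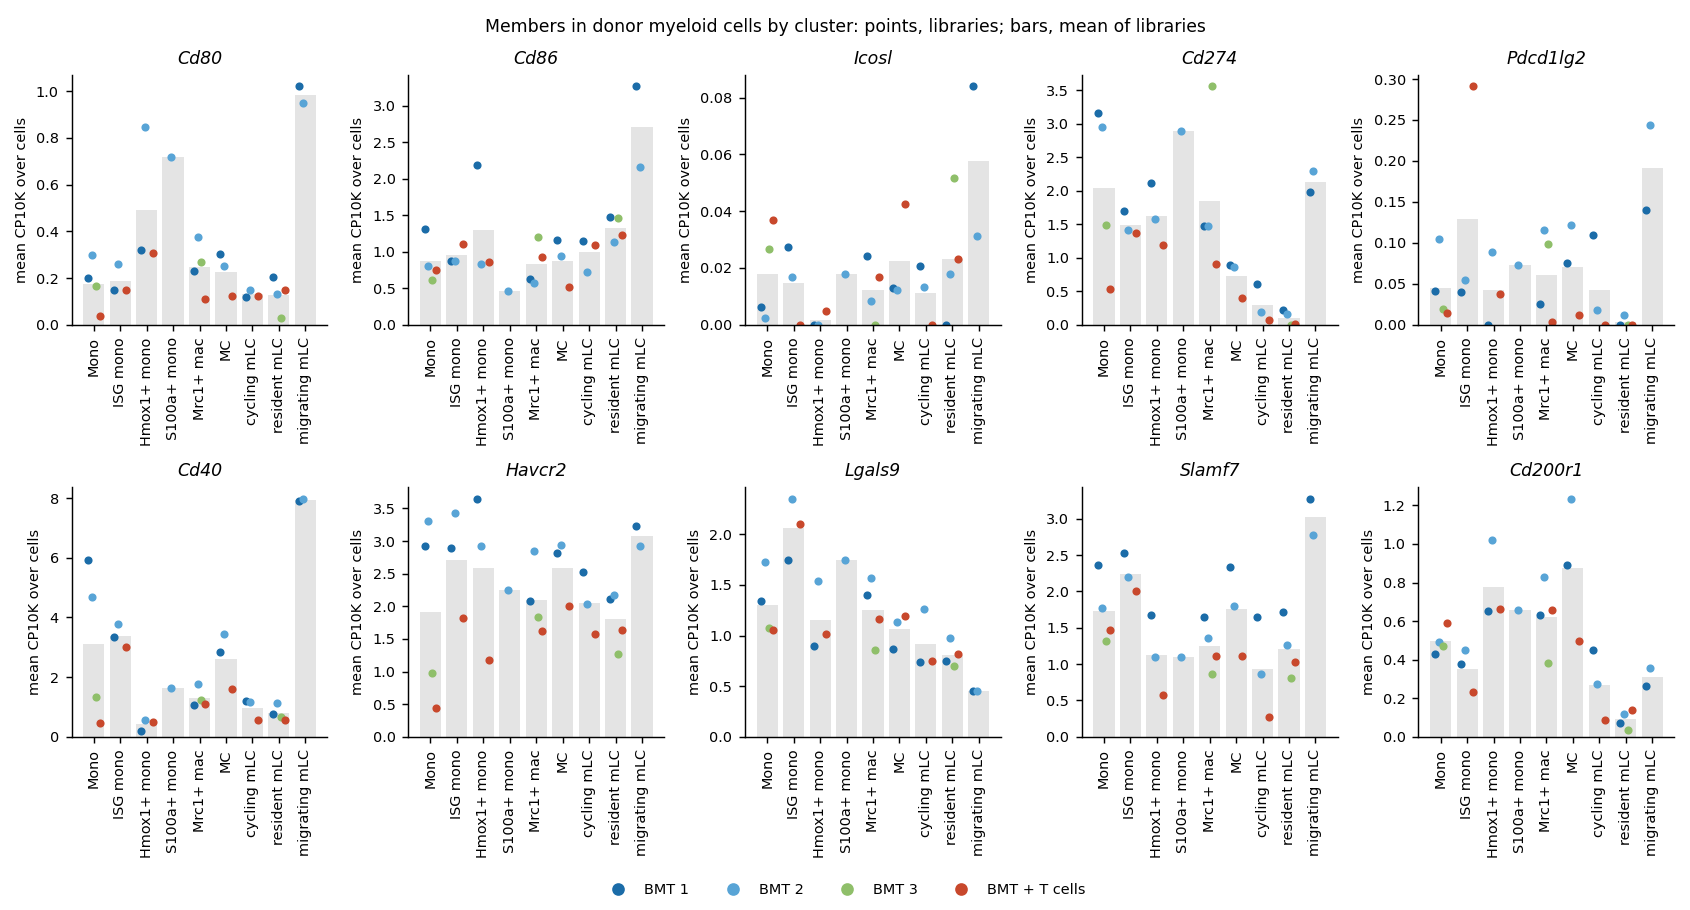
Mean level (CP10K, linear axis from 0, with its own scale for each gene) of the 10 genes in donor clusters. Points are libraries with at least 20 cells in the cluster and bars are the mean of the libraries. Cd80, Cd86, Cd40 and Slamf7 stand highest in migrating mLCs, where Cd40 lies at 7.89 and 7.98 CP10K, and Cd274 stands lowest in resident mLCs, at 0 to 0.215 CP10K.

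The first comparison asked how the genes differ between monocytes and the resident mLCs that they are thought to become. Differences between clusters were tested with limma on log2(CP10K + 0.1), in which a gene was called at an absolute log2 difference above 1 and an adjusted p under 0.05, so that log2 differences of weakly expressed genes are understated. Of the 10 genes, 8 passed the filter of a mean of 0.1 CP10K, and Icosl and Pdcd1lg2 did not. Of these 8, 3 were called, all lower in resident mLCs, and 14.8% of the 7267 genes tested were called in either direction (490 higher and 584 lower). The median log2 difference was -0.55 over the 8 members and 0.14 over all genes tested. Because clusters were made from the same values, a call describes the annotation and is not independent evidence of it.

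Cd274, which encodes PD-L1, showed the widest difference. In monocytes it measured 3.17, 2.96, 1.49 and 0.539 CP10K in BMT 1, BMT 2, BMT 3 and BMT + T cells. In resident mLCs it measured 0.215, 0.161, 0 and 0.00573 CP10K in the same libraries, from 6, 153, 0 and 4 UMIs. All 4 monocyte values lay above all 4 resident values, and the 0 of BMT 3 allows up to 0.0328 CP10K (3 UMIs of that library's resident mLCs). The fitted log2 difference was -3.38 ± 0.36 (SE, n = 4 libraries, adjusted p = 1.59e-07), and each library gave a value between -3.99 and -2.60. After each cell was thinned to 2000 UMIs, 41.7%, 39.3%, 20.3% and 8.77% of monocytes held a Cd274 UMI, against 0%, 2.93%, 0% and 0.364% of resident mLCs. Where the share was 0, the 86 and 47 thinned cells allow up to 3.49% and 6.38%. Of keratinocytes thinned alike, 0.106% and 0.309% held one in the BMT and BMT + T cells libraries, and the resident share of 0.364% in the BMT + T cells donor library was of that size. A background share was not measured within the donor library itself.

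Cd200r1, an inhibitory receptor of myeloid cells that binds CD200, also was lower in resident mLCs in each library. It measured 0.430, 0.494, 0.472 and 0.589 CP10K in monocytes. In resident mLCs it measured 0.0740, 0.117, 0.0370 and 0.140 CP10K, without overlap between the groups. The log2 difference was -1.66 ± 0.25 (SE, n = 4 libraries, adjusted p = 1.01e-05).

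The Cd40 receptor was called as well, but its libraries disagreed. Monocytes held 5.93 and 4.68 CP10K in BMT 1 and BMT 2, 1.32 in BMT 3 and 0.462 in BMT + T cells, whereas resident mLCs held 0.756, 1.15, 0.676 and 0.575. The groups overlapped, because the monocytes of the BMT + T cells library lay below all resident values. The log2 difference was -1.34 ± 0.42 (SE, n = 4 libraries, adjusted p = 0.0205), with library values from -2.82 to 0.27. The call was lost without BMT 1 (adjusted p = 0.112) and without BMT 2 (adjusted p = 0.235), so it rests on these 2 libraries.

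The other 5 genes tested did not pass. Cd86 measured 1.14 to 1.47 CP10K in resident mLCs and 0.615 to 1.31 CP10K in monocytes, was higher in resident mLCs in 4 of 4 libraries, and gave a log2 difference of 0.59 ± 0.24 (SE, adjusted p = 0.0654). Lgals9, which encodes galectin-9, a ligand of the inhibitory receptor TIM-3, gave -0.60 ± 0.15 (SE, adjusted p = 0.00334), below the threshold of size, with 4 of 4 libraries lower. Slamf7, a receptor that binds itself on neighbouring cells, gave -0.51 ± 0.20 (SE, adjusted p = 0.0546), and the values for Havcr2 (TIM-3, 0.25 ± 0.26) and Cd80 (-0.24 ± 0.27) had library values on both sides of 0.

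Other costimulatory and checkpoint genes were taken from a list of 43, of which 19 passed the filter. Of these 19, 2 were called higher and 6 lower in resident mLCs, with a median of -0.18. The higher ones were Cd24a, a costimulatory glycoprotein (log2 difference 3.32), and Tnfsf8, the ligand of CD30 (2.87). The lower ones were Slamf8 (-3.42), the collagen receptor Lair1 (-1.56), Clec2d (-1.34), Lgals3, which encodes galectin-3 (-1.25), the inhibitory receptor Pirb (-1.23) and Cd83 (-1.01).

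**Figure D2:**
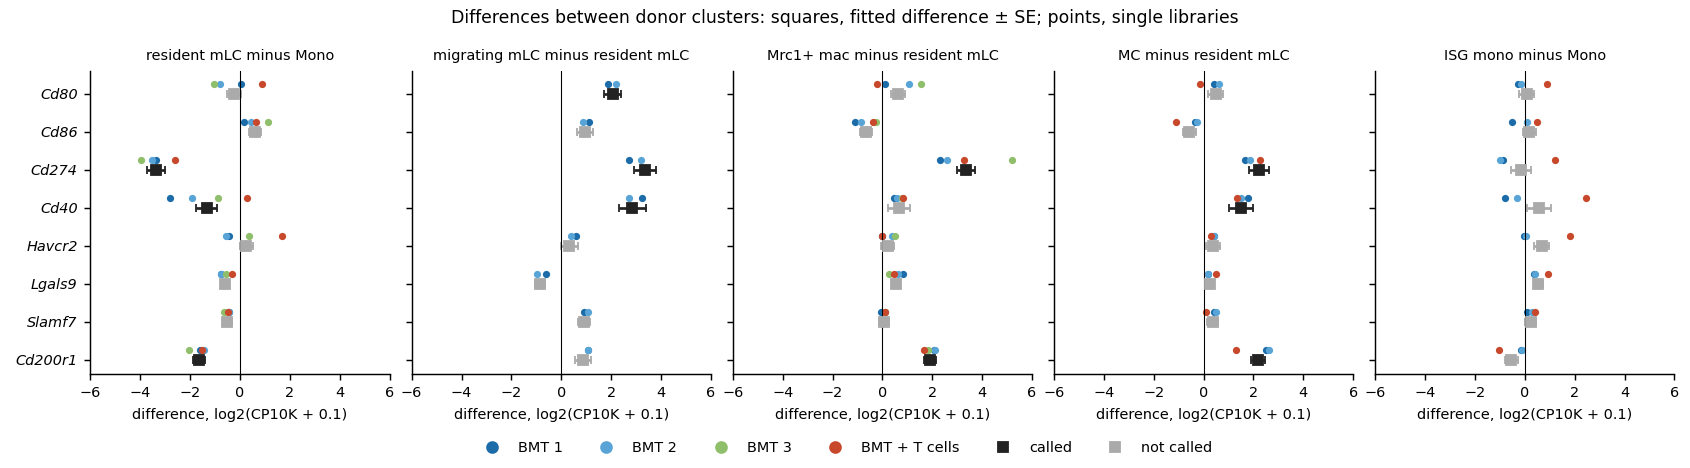
Differences between donor clusters on the log2(CP10K + 0.1) scale for the 8 genes that passed the filter. Squares are the fitted difference with its SE, in black where the gene was called and in grey where it was not, and points are the differences within single libraries. Cd274 was called in 4 of the 5 comparisons and lay on opposite sides of 0 in the first and the next 3.

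Migrating mLCs, which express the lymph-node homing receptor Ccr7, were next compared with resident mLCs. Only BMT 1 and BMT 2 held at least 20 migrating mLCs (91 and 766 cells), against 2 in BMT 3 and 16 in BMT + T cells. Of the 8 members tested, 3 were called, all higher in migrating mLCs, where 12.0% of the 7267 genes were called in either direction (371 higher and 502 lower). The median log2 difference was 0.93 over the 8 members and -0.26 over all genes tested.

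Among the ligands of CD28 and CTLA-4, Cd80 measured 1.02 and 0.951 CP10K in migrating mLCs of BMT 1 and BMT 2, against 0.206 and 0.131 CP10K in their resident mLCs. The log2 difference was 2.06 ± 0.34 (SE, adjusted p = 0.000114). Cd86 measured 3.27 and 2.16 CP10K in migrating mLCs and 1.47 and 1.14 CP10K in resident mLCs, with a log2 difference of 0.95 ± 0.31 (SE, adjusted p = 0.0308), which fell just short of the size threshold. Both ligands were thus higher in 2 of 2 libraries, and no migrating value lay within the resident range of any of the 4 libraries. The share of all genes tested that were separated in this way was not measured, here or for other members described as without overlap.

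The PD-1 ligand Cd274 measured 1.98 and 2.29 CP10K in migrating mLCs, against 0.215 and 0.161 CP10K in the resident mLCs of the same libraries. The log2 difference was 3.36 ± 0.46 (SE, n = 2 libraries with migrating mLCs, adjusted p = 1.25e-05). Its neighbour Pdcd1lg2 did not pass the filter. It was represented by 21 and 157 UMIs in migrating mLCs (0.139 and 0.243 CP10K) and by 0 and 13 UMIs in resident mLCs of these libraries (0 and 0.0120 CP10K). In the fit without the filter it was called, at 1.42 ± 0.42 (SE, adjusted p = 0.0359), whereas Icosl was not (0.40 ± 0.17 SE, adjusted p = 0.150).

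Cd40 reached its highest level in migrating mLCs, at 7.89 and 7.98 CP10K, against 0.756 and 1.15 CP10K in resident mLCs of the same libraries. The log2 difference was 2.85 ± 0.54 (SE, adjusted p = 0.000839). It was not called without BMT 2 (adjusted p = 0.0844), which leaves a single library with migrating mLCs. In thinned cells, 65.1% and 61.3% of migrating mLCs held a Cd40 UMI, against 23.3% and 20.8% of resident mLCs, and none of the thinned keratinocytes did.

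Slamf7 measured 3.28 and 2.78 CP10K in migrating mLCs and 1.72 and 1.27 CP10K in resident mLCs (log2 difference 0.91 ± 0.25 SE, adjusted p = 0.0117). Lgals9 was the one member with a lower level in migrating mLCs, at 0.451 and 0.455 CP10K against 0.750 and 0.977 CP10K (-0.86 ± 0.19 SE, adjusted p = 0.00222). Neither passed the threshold of size. Cd200r1 gave 0.88 ± 0.31 (SE, adjusted p = 0.050), and Havcr2 gave 0.33 ± 0.33 (SE, adjusted p = 0.515).

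Of the 19 genes of the wider list, 7 were called higher and 4 lower, with a median log2 difference of 0.50. Cd83, a maturation marker that the study used to describe this cluster, showed the largest difference (4.16), followed by Il12b, the p40 subunit of interleukin-12 and interleukin-23 (4.01), and Cd200, the ligand of the receptor encoded by Cd200r1 (2.93). Lower in migrating mLCs were Cd24a (-2.71), Tnfsf8 (-2.26) and Cd84 (-2.05). Clec2d (1.82) and Slamf8 (1.79) were higher. Cd200 averaged 1.31 CP10K in migrating mLCs and 0.0938 CP10K in resident mLCs. Il12b averaged 1.77 CP10K in migrating mLCs and at most 0.0362 CP10K in the other clusters compared. Both genes owed much of the mean used by the filter to migrating mLCs. Their high level there was thus in part a condition of being tested, and the count of 7 includes them. Cd28, Ctla4, Icos and Pdcd1, the receptors by which T cells read these ligands, together with Cd200 summed to at most 0.330 CP10K in every donor cluster other than migrating mLCs.

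Macrophages that express the mannose receptor Mrc1 (Mrc1+ macs) were compared with resident mLCs as an alternative fate of the same monocytes. Of the 8 members, 2 were called, both higher in Mrc1+ macs, where 13.9% of the 7267 genes were called (589 higher and 418 lower). Cd274 measured 1.47, 1.48, 3.56 and 0.907 CP10K in Mrc1+ macs of BMT 1, BMT 2, BMT 3 and BMT + T cells, each above every resident mLC value. The log2 difference was 3.34 ± 0.36 (SE, n = 4 libraries, adjusted p = 2.19e-07). Cd200r1 measured 0.631, 0.828, 0.380 and 0.656 CP10K, also without overlap, and its log2 difference was 1.91 ± 0.25 (SE, adjusted p = 1.59e-06). Cd86 was lower in Mrc1+ macs in 4 of 4 libraries, with a log2 difference of -0.65 ± 0.24 (SE, adjusted p = 0.0434) that did not pass the threshold of size. The median over the 8 members was 0.58, against -0.12 over all genes. In the wider list 7 of 19 were called higher and 2 lower, with a median of 0.18. The 8 with the largest differences were Cd24a (-3.03), Slamf8 (2.20), Lair1 (2.16), Tnfsf8 (-1.88), Lgals3 (1.68), Clec2d (1.44), Pirb (1.39) and Cd276, which encodes the B7 family member B7-H3 (1.16).

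Converting monocyte-derived cells (MCs), a transitional cluster, were compared with resident mLCs in the 3 libraries that held enough of them. Of the 8 members, 3 were called, all higher in MCs, where 8.39% of the 7267 genes were called (335 higher and 275 lower). Cd274 measured 0.899, 0.857 and 0.405 CP10K in BMT 1, BMT 2 and BMT + T cells, and its log2 difference was 2.20 ± 0.40 (SE, adjusted p = 0.000365). Cd200r1 measured 0.892, 1.24 and 0.497 CP10K, the highest mean of any cluster, with a log2 difference of 2.18 ± 0.27 (SE, adjusted p = 2.57e-06). Cd40 measured 2.83, 3.44 and 1.59 CP10K, above all resident values, with a log2 difference of 1.50 ± 0.47 (SE, adjusted p = 0.0366). The Cd40 call was lost without BMT 2 (adjusted p = 0.275) and without BMT 3 (adjusted p = 0.0543). The median over the 8 members was 0.43, against -0.13 over all genes. Of the wider list, Slamf8 (2.58), Lgals3 (2.07), Cd83 (1.16) and Slamf9 (1.03) were called higher and Cd24a (-2.08) and Tnfsf8 (-1.52) lower, 6 of 19 with a median of 0.16.

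Interferon-stimulated gene monocytes (ISG monos) were compared with Mono in the same 3 libraries. None of the 8 members was called, against 1.69% of the 7267 genes (80 higher and 43 lower). By limma, 772 genes and 2 of the members, Lgals9 and Havcr2, had an unadjusted p under 0.05. Lgals9 measured 1.75, 2.35 and 2.10 CP10K in ISG monos and 1.34, 1.73 and 1.06 CP10K in Mono of BMT 1, BMT 2 and BMT + T cells. The ISG mono value was the higher one in each of the 3 libraries, and the log2 difference was 0.55 ± 0.17 (SE, adjusted p = 0.0952). Cd40 and Cd274 differed in opposite directions between libraries. Cd40 was lower in ISG monos by -0.81 and -0.31 in BMT 1 and BMT 2 and higher by 2.46 in BMT + T cells, and Cd274 gave -0.87, -1.01 and 1.20. The median over the members was 0.21, against -0.02 over all genes. Of the wider list, Tnfsf8 (1.70), Cd276 (1.48) and Slamf9 (1.30) were called higher, 3 of 19 with a median of 0.09.

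Over all donor clusters, the order of levels was clear at its ends and blurred between them. Cd80 averaged 0.985 ± 0.049 CP10K (SD, n = 2) in migrating mLCs and 0.128 ± 0.075 (SD, n = 4) in resident mLCs, and neighbours in the order below migrating mLCs overlapped in their library ranges. For Cd274 the 3 lowest clusters were MCs (0.720 ± 0.27, SD, n = 3), cycling mLCs (0.290 ± 0.28, SD, n = 3) and resident mLCs (0.0956 ± 0.11, SD, n = 4), each overlapping the next. Lgals9 was highest in ISG monos (2.07 ± 0.30, SD, n = 3) and lowest in migrating mLCs (0.453 ± 0.0027, SD, n = 2), and Havcr2 ranged only from 1.80 ± 0.43 in resident mLCs to 3.08 ± 0.22 CP10K in migrating mLCs, with every neighbour overlapping. S100a+ monos were measured in BMT 2 alone, where Cd80 stood at 0.720 and Cd274 at 2.90 CP10K. Of 6 neutrophil markers, 5 were listed, and they summed to 560 CP10K in this cluster and to at most 48.5 CP10K in any other, and their part in these values was not tested. Icosl, the ligand of ICOS, stayed at or below 0.0840 CP10K in every library and cluster, and Pdcd1lg2 at or below 0.291 CP10K, a value that rests on 4 UMIs in ISG monos of the BMT + T cells library.

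Ligands of related receptors were then looked for in the same cell, in cells thinned to 2000 UMIs. Cd80 and Cd86 UMIs occurred together in 0.962% of cells of BMT 1 and 1.21% of BMT 2. Of the cells with Cd80, 24.5% and 20.6% also held Cd86, against 17.9% and 15.3% of cells without Cd80, a log2 odds ratio of 0.59 and 0.53. Cd40 and Cd86 gave log2 odds ratios of 0.48, 0.55, 1.07 and 0.33 in BMT 1, BMT 2, BMT 3 and BMT + T cells. Cd274 and Pdcd1lg2 gave 0.44 and 1.13 in BMT 1 and BMT 2, where 7 and 46 cells held both. The log2 odds ratios were above 0 in every library with at least 20 cells of each gene, over cells of all clusters together, so they include differences between clusters.

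The genes whose levels over the 27 donor libraries and clusters were most like those of each member were taken by Pearson's r, as a description, since the points share libraries and depths. Cd274 was most like Gna13 (r = 0.947) and St3gal1 (0.917). Slamf7 was most like Psme1 (0.918) and Psme2 (0.852), which encode proteasome activators, and Cd40 was most like Tap2 (0.916), a peptide transporter of antigen presentation, and Serpina3g (0.878). Cd200r1 was most like Tns1 (0.899) and F7 (0.897), Cd80 like Pik3r5 (0.848) and Rtn4 (0.837), Havcr2 like Myo1e (0.834) and Sh3pxd2b (0.790), Lgals9 like Cyp4f18 (0.798) and Bambi (0.784), and Cd86 like Serpinb6b (0.699) and Crybg1 (0.686). Among the members themselves the closest pair was Cd40 with Slamf7 (0.681).

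The donor library labelled BMT + T cells was compared with the 3 labelled BMT, over the 3 clusters that all 4 libraries held (Mono, Mrc1+ macs and resident mLCs). None of the 7345 genes tested was called by limma (0.0%), and 352 had an unadjusted p under 0.05. No member was called, and the median was -0.41 over the 8 members and 0.05 over all genes.

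Cd274 nevertheless was lower in the BMT + T cells library than in each BMT library. On the log2(CP10K + 0.1) scale, averaged over the 3 clusters, it stood at 0.23, 0.11 and -0.26 in BMT 1, BMT 2 and BMT 3 and at -1.29 in BMT + T cells. The difference was -1.32 ± 0.29 (SE, 1 library against 3, unadjusted p = 0.00135, adjusted p = 0.885). It was -1.98 in Mono, -1.05 in Mrc1+ macs and -0.93 in resident mLCs. All 3 BMT libraries lay above the BMT + T cells library in Mono and Mrc1+ macs. In resident mLCs BMT 3 held no Cd274 UMI and BMT + T cells held 4, and the order of these libraries is not known, since 0 UMIs allow up to 0.0328 CP10K in BMT 3. For its first donor dataset the study combined 2 sorting and sequencing experiments. It later added donor cells sorted from the same samples as keratinocytes. Which library belongs to which experiment was read from the short library names, and no label states it. The names have one form for BMT 1 and BMT 2 and another for BMT 3 and the BMT + T cells library. Whether BMT 1 and BMT 2 themselves came from separate experiments is not known, and the fit treats them as 1. With experiment as a term the fit sets 1 library against 1, BMT 3, and takes its spread from BMT 1 against BMT 2 alone. Cd274 was then called (-1.03, adjusted p = 0.0293) among 141 genes, which gives no replicate check of the label. Without BMT 3, which leaves the same pair to give the spread, 202 genes were called and Cd274 (-1.46, adjusted p = 4.93e-06), Cd40 and Havcr2 were among them.

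Cd40 stood at 0.86, 1.16 and 0.18 in the BMT libraries and at -0.38 in BMT + T cells, a difference of -1.11 ± 0.37 (SE, adjusted p = 0.949). The difference lay mainly in Mono (-2.62), and was -0.56 against BMT 3 alone. Havcr2 stood at 1.29, 1.50 and 0.50 against 0.23, a difference of -0.87 ± 0.39 (SE, adjusted p = 0.949), and was -0.27 against BMT 3. For both genes BMT 3 lay nearer to the BMT + T cells library than to BMT 1 and BMT 2. The label and the experiment, as read from the library names, therefore cannot be told apart. Of the 15 genes of an interferon-gamma list 12 were listed, and their summed level, averaged over the 3 clusters, was 34.6, 32.9 and 16.2 CP10K in BMT 1, BMT 2 and BMT 3 and 14.1 CP10K in BMT + T cells. Singly, 6 of the 12 were lower in BMT + T cells than in all 3 BMT libraries and none was higher than in all 3, and 10 of the 12 were lower in BMT 3 than in BMT 1 and BMT 2. The shares of all genes tested with these orders were not measured, so the counts are not read as a trait of the list. The part of the list in the result was not tested. The remaining members differed by -0.62 (Cd80), -0.21 (Slamf7), -0.13 (Lgals9), -0.02 (Cd86) and 0.30 (Cd200r1).

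**Figure D3:**
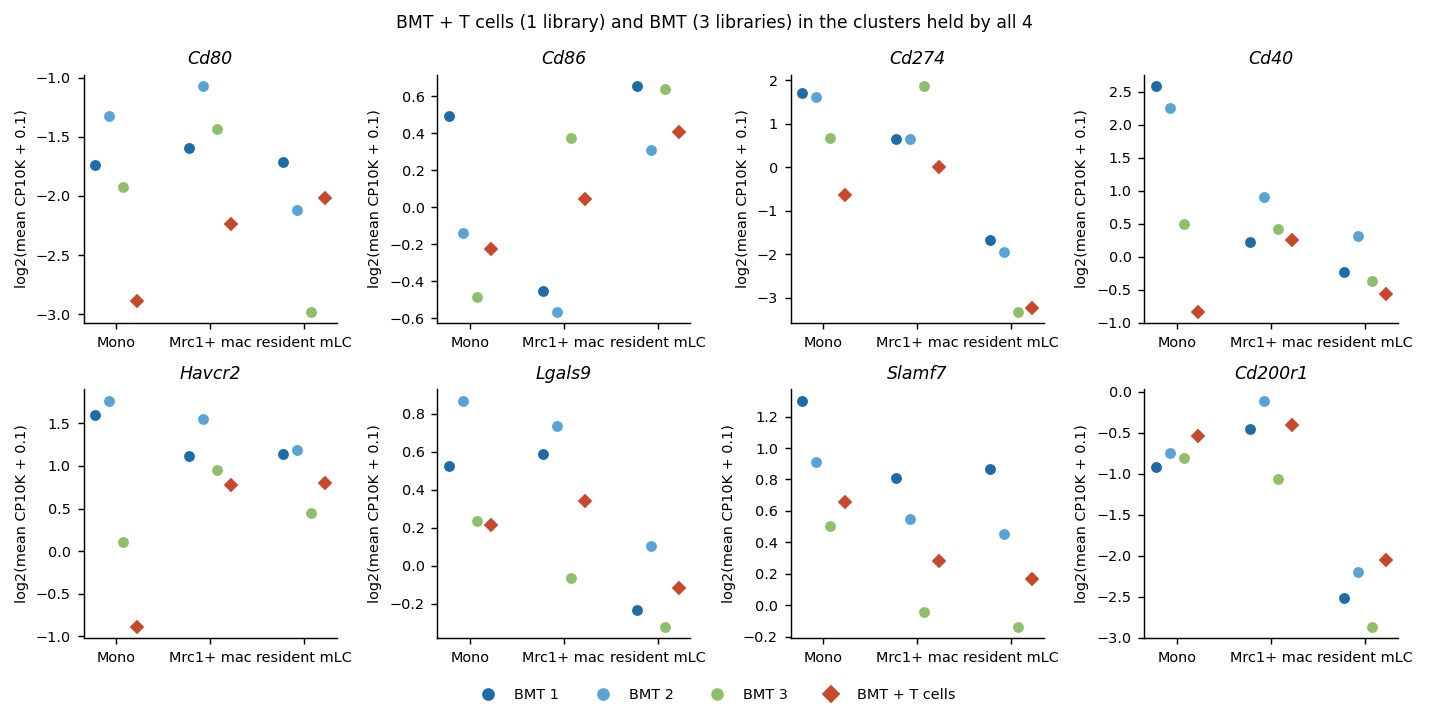
Level of the 8 tested genes, as log2(CP10K + 0.1), in the 3 donor clusters that all 4 libraries held. Circles are the 3 BMT libraries and diamonds the BMT + T cells library. The diamond lies below all circles for Cd274, Cd40 and Havcr2 in Mono, and the lowest Cd274 circle in resident mLCs, BMT 3, stands for 0 UMIs, so that its order against the diamond is not known.

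In keratinocytes, the epithelial cells that surround the monocytes, the question was which of these ligands the tissue itself offers. There was 1 library for each label, so no difference has a replicate check and intervals cover counting error only. Lgals9 was the only member with a mean of at least 0.1 CP10K. It measured 0.6254 CP10K in the BMT library (1679 UMIs) and 1.05 CP10K in the BMT + T cells library (2594 UMIs). The log2 difference on the CP10K + 0.1 scale was 0.66, below the fold of 2 that 0.381% of 7615 genes passed, and 44 genes (0.578%) had a difference at least as high. The ratio of UMIs was 1.72 (95% interval 1.62 to 1.83). In each of the 5 keratinocyte clusters the BMT + T cells library held the higher Lgals9 level, with differences of 0.61 in Basal, 0.46 in Follicular, 0.86 in Differentiated, 0.83 in KC_Four and 0.51 in KC_Five. It was lowest in Differentiated keratinocytes of both libraries, at 0.185 and 0.416 CP10K.

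The other members were rare in keratinocytes. Cd274 was counted 27 times in the BMT library and 49 times in the BMT + T cells library (0.0108 and 0.0239 CP10K), a ratio of UMIs of 2.02 (95% interval 1.24 to 3.37), with 13 and 31 of these UMIs in Basal cells. Markers of other cells differed alongside: 6 myeloid markers summed to 0.501 and 2.71 CP10K and 6 neutrophil markers to 0.308 and 0.749 CP10K. In the myeloid list Cd74, H2-Aa and H2-Ab1 made up most of the sum, Cd74 with 0.306 and 1.63 CP10K, whereas Ptprc was at 0 and 0.000918 CP10K and Csf1r at 0.000921 and 0.000951 CP10K. In the neutrophil list S100a8 and S100a9 made up most of it, and Ly6g was at 0 in both libraries. The part of other cells in the Cd274 values was not tested. Cd86, Cd40 and Pdcd1lg2 had no UMI in either library, which allows up to 0.00108 and 0.00120 CP10K. Cd80 had 18 and 7 UMIs, Havcr2 4 and 6, Slamf7 0 and 3, Cd200r1 1 and 2, and Icosl 1 in each. Of the 15 genes of the interferon-gamma list, 14 were higher in the BMT + T cells library, with a median log2 difference of 0.23 against 0.00 over all genes tested. Among them Iigp1 had 595 UMIs in the BMT library and 2428 in the BMT + T cells library, and Cxcl9 had 152 and 1036, and the part of this in the Lgals9 and Cd274 values was not tested. The share of all genes tested that were higher in the BMT + T cells library was not measured. The count of 14 is therefore not read as a trait of the list.

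**Figure D4:**
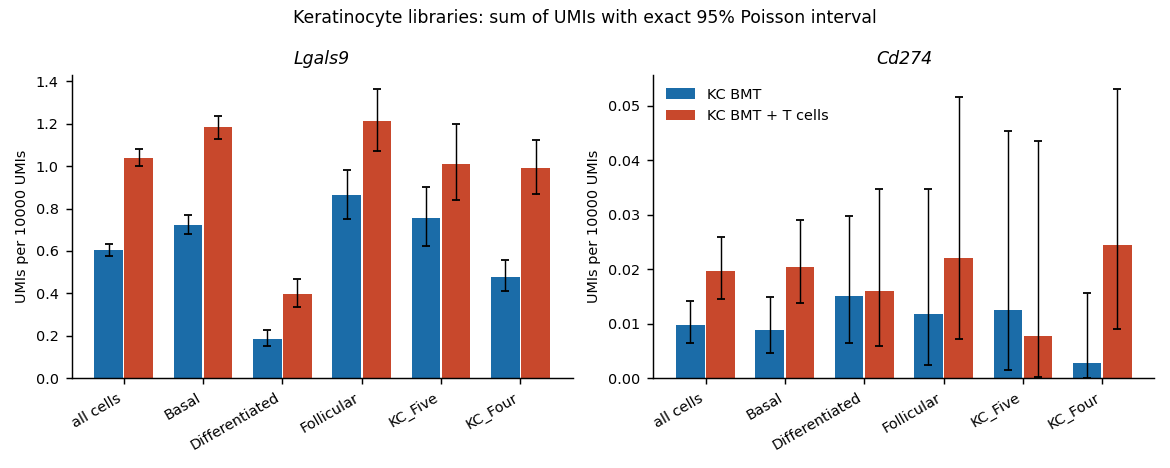
UMIs per 10000 UMIs of Lgals9 and Cd274 in the 2 keratinocyte libraries, for all cells and for each cluster, on linear axes from 0. Bars are sums of UMIs over all UMIs of the cells and lines are exact 95% Poisson intervals, which cover counting error only. For Lgals9 the BMT + T cells bar is the taller one in all 5 clusters. For Cd274, with 27 and 49 UMIs, the intervals overlap within each cluster. The exact 95% interval of the ratio of Cd274 UMIs lay above 1 in Basal (1.18 to 4.85) and KC_Four (1.05 to 398, from 1 and 6 UMIs). It held 1 in the other clusters.

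Host CD11b+MHCII+ cells formed 7 clusters of 276, 170, 161, 90, 43, 23 and 18 cells. Clusters 1 to 4 carried Langerhans markers (summed 10.0 to 48.3 CP10K), whereas cluster 5 held keratin transcripts (Krt14 205 CP10K, Krt5 130 CP10K), cluster 6 held those of T cells (Cd3e 41.0 CP10K, Trdc 61.9 CP10K) and cluster 7 held keratins (Krt14 25.5 CP10K) with little Ptprc, the gene of CD45 (0.491 CP10K). Clusters 5 to 7 therefore go against the sort and are given apart. Cluster 2 also carried keratins, which summed to 45.3 CP10K there, 46.4 in cluster 7 and 3.11 to 6.30 in clusters 1, 3 and 4, beside the highest Langerhans sum. Their part in its values was not tested. Of 5 fibroblast and endothelial markers, 4 were listed for host cells. They summed to 16.5, 14.3, 8.01 and 10.3 CP10K in clusters 1 to 4, and to 1.50, 2.20 and 11.2 CP10K in clusters 5 to 7. In donor clusters of at least 20 cells, where all 5 were listed, they summed to at most 0.928 CP10K. The part of other cells in the values of clusters 1 to 4 was not tested. There is 1 host library and no test.

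Cluster 4, marked by Ccr7 (2.87 CP10K, at most 0.163 in clusters 1 to 3), Ccl22 and Fscn1, held the highest level of Cd80, Cd86, Icosl, Cd274, Cd40 and Slamf7 both as a mean over cells and as a sum of UMIs. Pdcd1lg2 was also highest there as a mean (0.174 CP10K), but from 2 UMIs. Cd86 measured 6.44 CP10K there and 3.45, 1.94 and 3.13 CP10K in clusters 1, 2 and 3. Cd80 measured 1.69 CP10K (118 UMIs) against 0.219 to 0.304, Cd40 3.92 CP10K (230 UMIs) against 0.257 to 0.915, and Cd274 1.50 CP10K (104 UMIs) against 0.125 to 0.161. Their exact 95% Poisson intervals of summed UMIs did not overlap those of clusters 1 to 3, nor did that of Slamf7 (2.34 CP10K against 0.254 to 0.556). Icosl measured 0.535 CP10K from 27 UMIs, against 0.0683 to 0.153 in clusters 1 to 3, and its interval (0.298 to 0.657) lay just above that of cluster 1, which reached 0.294. These intervals cover counting error only and leave out the spread between cells. The 230 Cd40 UMIs came from 58 cells and the 27 Icosl UMIs from 15 cells, so the intervals are not a test between clusters. The shares of all host genes that were highest in cluster 4, or had such separate intervals, were not measured. These orders are therefore not read as a trait of the members. Havcr2 did not follow this order: it measured 1.41 CP10K in cluster 4 and 0.987 to 1.87 CP10K in clusters 1 to 3.

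Lgals9 was nearly absent from host clusters 1 to 4, with 9, 8, 5 and 0 UMIs (0.0675, 0.0372, 0.0732 and 0 CP10K, the last allowing up to 0.0502). It reached 0.95 CP10K (130 UMIs) in the keratin-high cluster 5. Cd200r1 had 15 UMIs and Pdcd1lg2 6 UMIs in the whole host library. Set side by side, and without a test because the tables were normalized separately, donor resident mLCs held 0.701 to 0.977 CP10K of Lgals9 and 1.14 to 1.47 CP10K of Cd86. Many host cells were of low quality: 208 of 781 had more than 20% mitochondrial UMIs, and without these and the cells under 500 genes, 57 of the 90 cells of cluster 4 remained. Cluster 4 then still held 5.29 CP10K of Cd86, 2.12 of Cd80, 3.54 of Cd40 and 1.86 of Cd274, each above clusters 1 to 3.

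**Figure D5:**
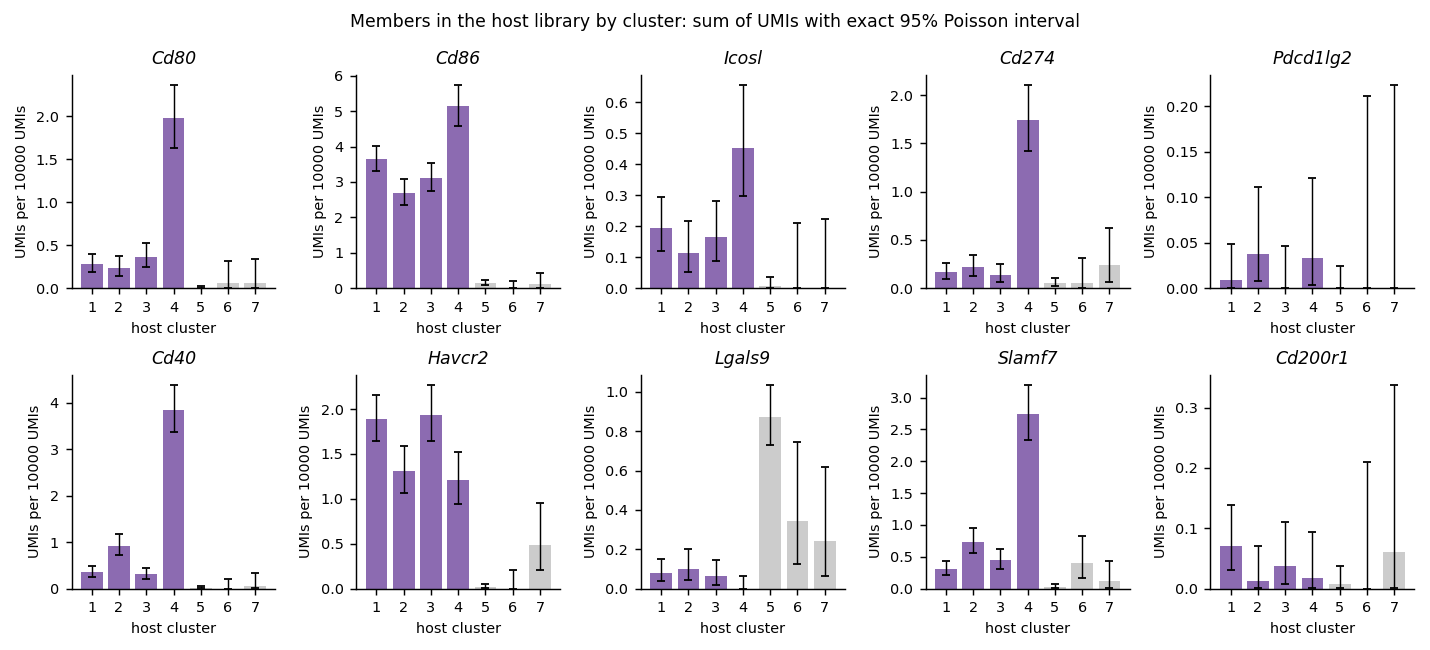
UMIs per 10000 UMIs of the 10 genes in the 7 host clusters, as sums over all UMIs of the cells, on linear axes from 0 with their own scale. Lines are exact 95% Poisson intervals, which cover counting error only. Purple bars are clusters 1 to 4 and grey bars are clusters 5 to 7, which hold markers of other cells. Cluster 4 is highest for Cd80, Cd86, Icosl, Cd274, Cd40 and Slamf7, and Lgals9 is highest in cluster 5.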

How the data were processed

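Epidermal cells were sorted as donor or host CD11b+MHCII+ cells or as CD45-negative keratinocytes, and 7 libraries of single-cell RNA were sequenced. Per the submitters' processing notes, kallisto and bustools were used with GRCm38 and Seurat, and the study's methods name DoubletFinder for doublets. The deposited expression values are natural log values, which the authors made as ln of 1 plus CP10K, and the deposited mitochondrial values are a percent of UMIs per cell. Clusters are the authors' own. No per-sample column was left unused (0).

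UMIs were recovered from the log values, and 100% of 28329689 donor, 15311900 keratinocyte and 1755429 host values came out whole within 0.001. The median donor cell had 91.3% of its UMIs in the genes listed. Means of CP10K were taken per library and cluster where 20 or more cells were present, genes averaging under 0.1 CP10K were dropped, and log2(CP10K + 0.1) was fitted with limma 3.58.1 in R 4.3.3, using all clusters, library as a block and Benjamini-Hochberg adjustment over all genes tested. All adjusted p values are from limma. Labels were compared on library means over 3 clusters. For cluster comparisons the p-values measure the spread of library and cluster means left after the cluster and library terms, taken over all clusters together. A comparison held by few libraries thus also draws its spread from other clusters and libraries. For labels the p-values measure the spread between libraries, and either spread may be technical. Poisson, binomial and ratio intervals (95%) are exact and cover counting error only, and 0 UMIs were given a limit of 3 UMIs. Shares used cells thinned to 2000 UMIs, which left out 182 of 2572 cells of BMT 1, 770 of 8382 of BMT 2, 38 of 226 of BMT 3 and 87 of 719 of BMT + T cells, and no keratinocyte. On simulated data, 98.5% to 100.0% of 200 genes changed 4-fold were recovered, with 0 to 5 unchanged genes called among 7299 to 7313. The simulated noise was independent for each library and cluster, without a library or experiment effect, and the changed genes lay well above the filter. These shares therefore check the code and do not give the power or error rate of the comparisons in the data.

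The members and all gene lists were chosen with earlier results of these data known. Named were all members, genes of the wider list that were called (the 8 largest where more were), and the 2 genes most like each member. Pseudocount, filter, cell minimum, scale, model, block and left-out libraries were varied, and a stricter cell filter was added after seeing the data.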

Additional observations from a re-analysis of the deposited data

Results flagged for a closer look

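Pdcd1lg2 in resident mLCs measured 0.0120 CP10K in BMT 2, from 13 UMIs, and 0 in the other 3 donor libraries, and was picked out as a distant value. The 3 zeros fix this result whatever BMT 2 holds, and 0 UMIs allow up to 0.0297 CP10K in BMT 1 and 0.0328 CP10K in BMT 3, both above the value of BMT 2, so no order of the BMT libraries can be read from it. In BMT + T cells 0 UMIs allow up to 0.00770 CP10K. Of 30 groups of 4 libraries looked at for a distant value this was the only 1, and chance gives about 1 in 20. BMT 2 held 1175 resident mLCs against 51 to 320 in the other libraries, and the part of depth was not tested.

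Cd274 differed between the labels by -1.32 on the log2(CP10K + 0.1) scale in donor cells, where the BMT + T cells library lay below all 3 BMT libraries, and by 0.16 in the opposite direction in keratinocytes, from 27 and 49 UMIs. The keratinocyte libraries were 1 for each label, and the difference between the donor and the keratinocyte values was not tested.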

How the results depend on the processing

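No paired analysis was possible because the labels number the libraries of the compared labels without shared replicate numbers, which concerns pairs by number only. Clusters were compared within libraries by the library block, without which 5 members were called in migrating against resident mLCs. For resident mLCs minus Mono, migrating minus resident mLCs, Mrc1+ macs minus resident mLCs, MCs minus resident mLCs and ISG monos minus Mono, in this order, the genes called were 228, 159, 199, 122 and 30 with a pseudocount of 1, 154, 113, 135, 86 and 18 with means of the deposited log values, and 295, 190, 255, 152 and 27 with a log2 difference above 2. Voom on summed UMIs called 1458, 918 and 249 genes for migrating mLCs, MCs and ISG monos, and the 2 clusters alone gave 60 for ISG monos. The members called were 1, 1 and 0 for resident mLCs minus Mono, Mrc1+ macs and MCs with a pseudocount of 1, 0 in these 3 with the deposited log values, and 1 in the first 2 with a log2 difference above 2. In migrating mLCs 7 members were called by voom and 5 with at least 50 cells. The numbers of all genes called with at least 50 cells and without the library block are not given here. The counts of 5 members are therefore not read as a result about the members. Without 1 library, the genes called were 995 to 1164, 339 to 933, 887 to 1097, 420 to 660 and 31 to 144, and the members called 2 to 3, 2 to 5, 2 to 2, 2 to 3 and 0 to 0. Migrating mLCs gave 375 genes without BMT 1 and 339 without BMT 2, and ISG monos gave 31 without BMT 2 and 57 without BMT + T cells. The cause was not tested.

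For BMT + T cells minus BMT, the genes called ranged from 0 to 202 and the members from 0 to 3 without 1 BMT library, the upper values without BMT 3, and experiment as a term called 141 genes and 1 member. For keratinocytes, the Lgals9 difference was 0.33 with a pseudocount of 1. In host cluster 4, Cd86 was 5.14 CP10K from the sum of UMIs, and the stricter cell filter gave 2.12 for Cd80, 5.29 for Cd86, 0.733 for Icosl, 1.86 for Cd274 and 2.93 for Slamf7. Without thinning, the mean share of cells with Cd274 was 51.4% in Mono and 3.89% in resident mLCs, and with Cd40 56.1% and 41.7%.

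Members whose sign changed were not called in the reported comparison. In resident mLCs minus Mono, Havcr2 gave -0.19 by voom, and without 1 library Cd80 ranged from -0.61 to 0.035 (without BMT 3) and Havcr2 from -0.23 (without BMT + T cells) to 0.53. In Mrc1+ macs, Slamf7 gave -0.013 with the deposited log values. In ISG monos minus Mono, voom gave -0.30 for Cd80, -0.0057 for Cd86 and -0.092 for Cd40, and without 1 library Cd80 ranged from -0.25 (without BMT + T cells) to 0.24, Cd274 from -0.75 to 0.21 (without BMT 2) and Cd40 from -0.19 (without BMT + T cells) to 1.08. Between labels, pooling all cells gave 0.084 for Cd86 and -0.42 for Cd200r1, the experiment term gave 0.19 for Lgals9 and 0.26 for Slamf7, and without 1 BMT library Cd86 ranged from -0.13 to 0.051 (without BMT 1) and Lgals9 from -0.29 to 0.022 (without BMT 2). Icosl and Pdcd1lg2 were left out by the filter. Without it Pdcd1lg2 was called in migrating against resident mLCs only, and Icosl in none of the 6 donor comparisons, and their levels rest on few UMIs.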
